A study of Saccharomyces cerevisiae with 8 samples.

Results

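Reductive iron uptake and iron sparing in budding yeast were followed through 10 genes: FET3, FTR1, FRE1, FRE2, CCC2, ATX1, AFT1, AFT2, TIS11 and HMX1. The genes were taken by symbol from the annotation of the array. Each of the 10 symbols had 1 probe set, none of them marked as shared with another gene, and all 10 lay among the 5324 genes tested, out of 5449 named. RNA came from 8 cultures of Saccharomyces cerevisiae BY4742, a haploid laboratory strain with the genotype label MATa his3 leu2 lys2 ura3, harvested in mid-log growth on synthetic complete dextrose, and was read on Affymetrix yeast arrays. There were 2 cultures, named as biological replicates, in each of 4 groups: L-carnitine followed by hydrogen peroxide, hydrogen peroxide alone, L-carnitine alone, and untreated control. Peroxide was given at 0.4 mM for 30 min. Carnitine is stated as 100 mg/L in the series design and as 1000 mg/L in the treatment protocol. All groups carry the same auxotrophic markers, and no iron, copper or chelator treatment is named in the labels.

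Yeast takes up iron at the plasma membrane by first reducing it with surface reductases such as Fre1 and Fre2. The ferrous iron is then oxidised and carried in by a complex of the ferroxidase Fet3 and the permease Ftr1, and Fet3 works only after copper has been delivered to it by the chaperone Atx1 and the copper pump Ccc2. The transcription factors Aft1 and Aft2 switch these genes on when iron is short, while Tis11 (also called Cth2) binds transcripts of iron-using proteins and speeds their decay, and the haem oxygenase Hmx1 releases iron from haem.

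Signals are linear units, 1 per probe set and array, and differences are log2 ± SE from a linear model (limma) over all 8 arrays. The words rose and fell are kept for genes with a limma p below 0.05 after Benjamini-Hochberg adjustment over the 5324 genes. The number of arrays, 2 per group, limits the precision. The array medians of the tested genes lay between 3044 and 3198, and the 2 arrays of a group differed by a median of 0.0865 to 0.0984 on the log2 scale. The α-cell genes MF(ALPHA)1, MF(ALPHA)2 and STE3 read 16046 to 51980 and the a-cell genes MFA1, MFA2, STE2 and BAR1 read 5.48 to 241, which goes against the MATa label, whereas LEU2, LYS2 and URA3 read 3.87 to 4.09, below the background of 4.14, and HIS3 read 10505.0 to 17056. All differences are relative to the overall array signal. Scaling to added bacterial poly-A spikes would move the median gene by -0.59 for peroxide against control, by 0.70 for carnitine with peroxide against peroxide, by 0.63 for the interaction and by 0.07 or less for the others. Scaling to hybridisation spikes would move it by 0.47 for peroxide against control, 0.37 for carnitine with peroxide against carnitine, 0.16 for carnitine against control and -0.10 for the interaction. The poly-A spikes were dim, with array means of 5.33 to 6.11 in log2, where those of the hybridisation spikes were 10.5 to 11.2. Whether either set of spikes is a sound reference was not tested, so calls gained or lost with spike scaling show only dependence on the scaling. Array signals are not comparable between genes, so levels are compared only within a gene.

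Without peroxide, carnitine lowered FRE1, TIS11 and FET3: 0 of the 10 genes rose and 3 fell (limma; 5 of the 10 had an unadjusted p below 0.05), where 1.5% of all tested genes were called, 0.47% rising and 1.03% falling. Peroxide alone raised 6 of the 10 and lowered 1, beside 74.8% of all genes called, 35.3% rising and 39.5% falling. In carnitine-fed cells peroxide raised 8 and lowered 0 (8 had an unadjusted p below 0.05), beside 74.9% called, 35.8% rising and 39.1% falling. The share of the 10 called with peroxide, 70% in unfed and 80% in carnitine-fed cells, was close to that of all genes. During peroxide exposure carnitine raised 4 of the 10 and lowered 1, where 35.5% of all genes were called, 18.8% rising and 16.7% falling. The carnitine counts with and without peroxide both drop in some fits without 1 array, which leave 1 array in a group. Calls over all genes drop in the same fits. The response to peroxide differed between carnitine-fed and unfed cells for 7 of the 10, larger for 6 and smaller for 1, where the difference was called for 12.8% of all genes, 7.72% larger and 5.11% smaller. With poly-A scaling it was larger for 8 and smaller for 0, where 73.2% of all genes were larger. As deposited, the count of 7 drops when certain single arrays are left out, and the calls over all genes drop in the same fits. FRE2, AFT1 and HMX1 did not pass with all arrays (limma adjusted p = 0.507, 0.862 and 0.728). The median difference of the 10 was -0.36 for carnitine without peroxide and 0.23 for carnitine with peroxide, against all-gene medians of -0.0011 and 0.0078. These last 2 comparisons use separate arrays. The peroxide comparison and the carnitine comparison without peroxide both use the control arrays, and each gene's values are given side by side below.

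**Figure D1:**
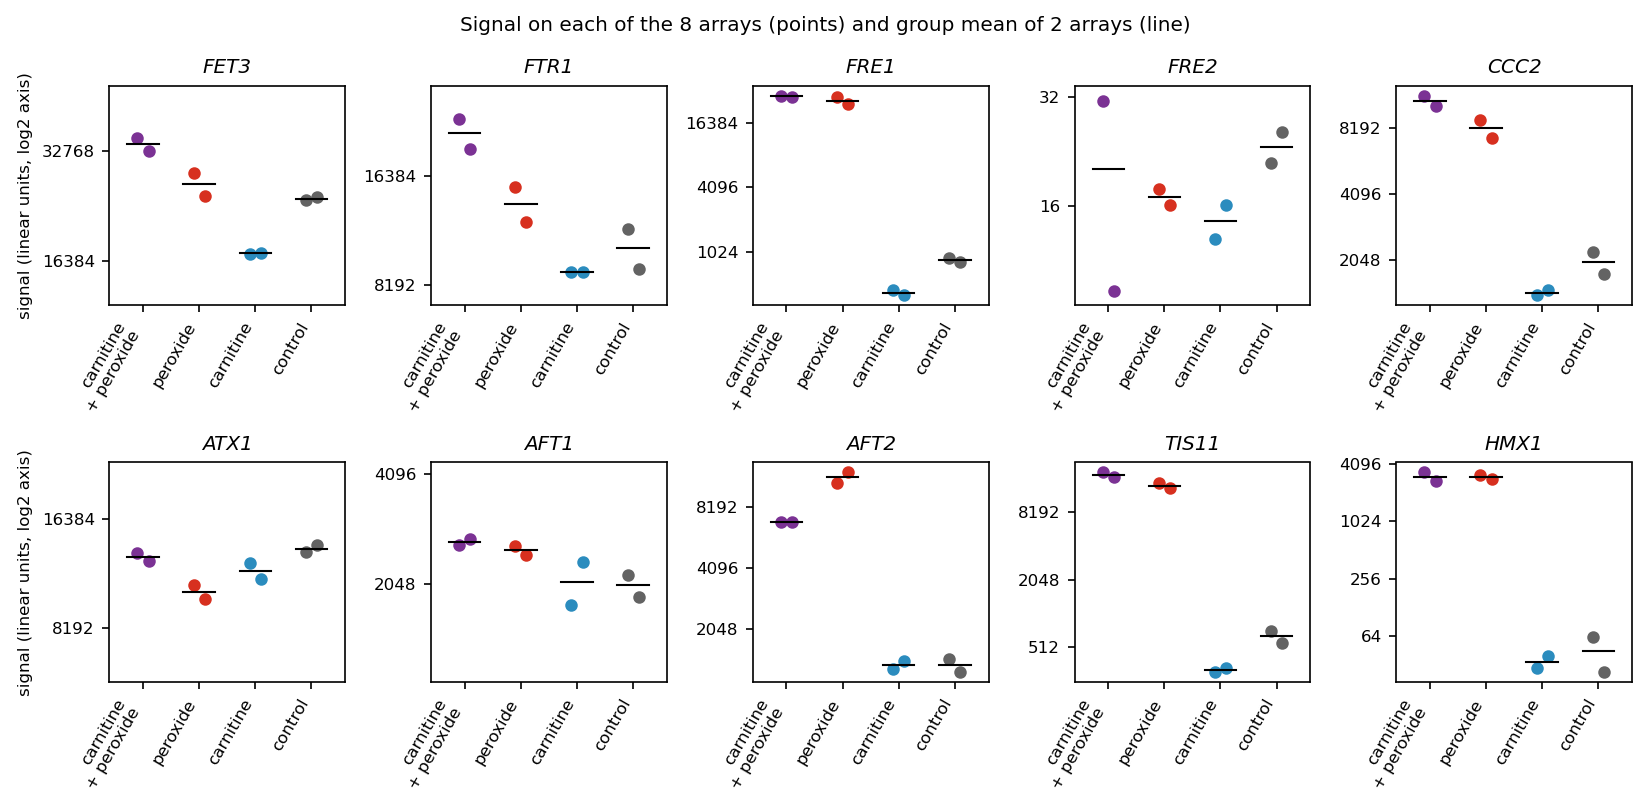
Signal of each of the 10 genes on the 8 arrays (linear units on a log2 axis; each panel has its own range), with the 4 groups from left to right and a line at the mean of the 2 arrays of a group. FRE1, TIS11, HMX1, CCC2 and AFT2 are far higher in the peroxide groups, FET3 and FTR1 are highest in carnitine with peroxide, and the 2 FRE2 arrays of that group read 31.2 and 9.38.

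FET3 (YMR058W), for the ferroxidase, read 35634 and 32831 in carnitine with peroxide, 28440.5 and 24685 in peroxide, 17112 and 17157 in carnitine, and 23958 and 24507 in control cultures. The 4 groups did not overlap, with carnitine alone lowest and carnitine with peroxide highest. Group means were 34233 ± 1982, 26563 ± 2656, 17134 ± 32.1 and 24232 ± 388 in the same order (SD, n = 2 each). Carnitine alone lowered FET3 by 1.41-fold (-0.50 ± 0.072, limma adjusted p = 0.0223), and carnitine on top of peroxide raised it 1.29-fold (0.37 ± 0.072, limma adjusted p = 0.00834; 0.0574 without carnitine with peroxide replicate 1). Peroxide raised FET3 2.0-fold in carnitine-fed cells (limma adjusted p = 9.02e-06), whereas its difference of 0.13 ± 0.072 in unfed cells did not pass (limma adjusted p = 0.139). That difference passed in opposite directions with the 2 spike scalings. It reads -0.46 with poly-A scaling (limma adjusted p = 0.00153) and 0.60 with hybridisation scaling (limma adjusted p = 0.000209). The response to peroxide was larger in carnitine-fed cells by 0.87 ± 0.10 (limma adjusted p = 0.0149). The carnitine call without peroxide is a narrow one: it ended with poly-A scaling (adjusted p = 0.0832), hybridisation scaling (0.211), no filter on dim genes (0.0533) and no trend in the variance (0.0549), and without any 1 of the 4 arrays compared (0.0930 to 0.124), while the difference itself stayed between -0.52 and -0.48 when an array was left out.

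FTR1 (YER145C), for the permease that works with Fet3, read 23467 and 19385 in carnitine with peroxide, 15249 and 12207 in peroxide, 8904 and 8942 in carnitine, and 11679 and 9113 in control cultures. Carnitine with peroxide lay above every other group, by 2.39-fold over carnitine (1.26 ± 0.15, limma adjusted p = 0.000133) and by 1.56-fold over peroxide (0.64 ± 0.15, limma adjusted p = 0.0151). Peroxide alone raised FTR1 1.32-fold (0.40 ± 0.15, limma adjusted p = 0.0395), a direction that turns to -0.19 with poly-A scaling. Carnitine alone gave -0.21 ± 0.15, which did not pass (limma adjusted p = 0.593), and carnitine and control are neighbours in the order of levels. The peroxide response was larger with carnitine by 0.85 ± 0.21 (limma adjusted p = 0.0421; 0.0591 to 0.0671 with an offset of 50, no trend or no filter). Several FTR1 calls rest on few arrays: that for peroxide alone has adjusted p = 0.246 without control replicate 2 and 0.226 without peroxide replicate 1, 0.0606 without either carnitine array, and 0.0550 to 0.0687 with an offset of 50, no trend, no filter or only the arrays compared, and that for carnitine on top of peroxide has 0.0952 without peroxide replicate 2 and 0.0943 without carnitine with peroxide replicate 1.

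FRE1 (YLR214W), for a surface reductase of ferric iron and copper, had the lowest adjusted p of the 10 for carnitine without peroxide. It read 29416 and 28857 in carnitine with peroxide, 28660 and 24529 in peroxide, 448 and 399 in carnitine, and 886 and 827 in control cultures. The groups without peroxide did not overlap, with carnitine lower, and both peroxide groups were far above them. Carnitine alone lowered FRE1 by 2.03-fold (-1.02 ± 0.095, limma adjusted p = 0.00688), a call that held in all 8 fits with 1 array left out (adjusted p 0.0111 to 0.0475) and missed the threshold in a fit of those 4 arrays alone (0.0700). Peroxide raised it 31.0-fold in unfed cells (4.95 ± 0.095, limma adjusted p = 3.48e-08) and 68.9-fold in carnitine-fed cells (6.11 ± 0.095, limma adjusted p = 1.56e-08). Carnitine with peroxide differed from peroxide by 0.14 ± 0.095, which did not pass (limma adjusted p = 0.293) but does with poly-A scaling (0.83, adjusted p = 1.73e-05). The responses to peroxide differed by 1.15 ± 0.13 (limma adjusted p = 0.0149).

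FRE2 (YKL220C), for a second surface reductase, was dim throughout, with signals of 31.2 and 9.38 in carnitine with peroxide, 17.9 and 16.1 in peroxide, 13.0 and 16.1 in carnitine, and 21.0 and 25.6 in control cultures. The 2 arrays of carnitine with peroxide lay above and below those of every other group. FRE2 passed in none of the 5 comparisons (limma adjusted p 0.415 to 0.991), and its SE of 0.47 was the largest among the 10 genes. With poly-A scaling it passed for peroxide alone (-1.04, limma adjusted p = 0.0152) and for the interaction (1.32, 0.0306). FRE2 was also lower with peroxide in a fit of the control and peroxide arrays alone (-0.45, limma adjusted p = 0.0302), but read 0.02 with hybridisation scaling (0.957). Its differences in comparisons with carnitine and peroxide together turn on 1 array: carnitine with peroxide against carnitine is -0.62 without replicate 1 (adjusted p = 0.0214) and 1.11 without replicate 2 of carnitine with peroxide (0.00186).

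The genes that load copper onto Fet3 split. CCC2 (YDR270W), for the copper pump, read 11459 and 10312 in carnitine with peroxide, 8897 and 7411 in peroxide, 1417 and 1497 in carnitine, and 2229 and 1781 in control cultures, with no overlap between groups. Peroxide raised CCC2 4.08-fold in unfed cells (2.03 ± 0.13, limma adjusted p = 6.26e-06) and 7.46-fold in carnitine-fed cells (2.90 ± 0.13, limma adjusted p = 1.26e-06), and these responses differed by 0.87 ± 0.18 (limma adjusted p = 0.0301). Carnitine on top of peroxide raised it 1.34-fold (0.42 ± 0.13, limma adjusted p = 0.0404), a call lost with no filter (0.0575), no trend (0.0536), an offset of 50 (0.0518), or without either carnitine array (0.0588 and 0.0589), peroxide replicate 2 (0.218) or either array of carnitine with peroxide (0.0761 and 0.188). Carnitine alone gave -0.45 ± 0.13, which did not pass (limma adjusted p = 0.172).

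ATX1 (YNL259C), for the copper chaperone, read 13175 and 12558 in carnitine with peroxide, 10743 and 9848 in peroxide, 12398 and 11184 in carnitine, and 13255 and 13859 in control cultures, so the peroxide arrays were the lowest. ATX1 was the only one of the 10 genes that fell with peroxide alone (-0.40 ± 0.070, limma adjusted p = 0.00121), although with hybridisation scaling the difference is 0.07. Carnitine on top of peroxide raised it 1.25-fold (0.32 ± 0.070, limma adjusted p = 0.0118), with adjusted p = 0.0740 without peroxide replicate 2 and 0.0744 without carnitine with peroxide replicate 1. In carnitine-fed cells the peroxide difference of 0.13 ± 0.070 did not pass (limma adjusted p = 0.132), and the responses to peroxide differed by 0.53 ± 0.099 (limma adjusted p = 0.0245; 0.183 with hybridisation scaling).

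**Figure D2:**
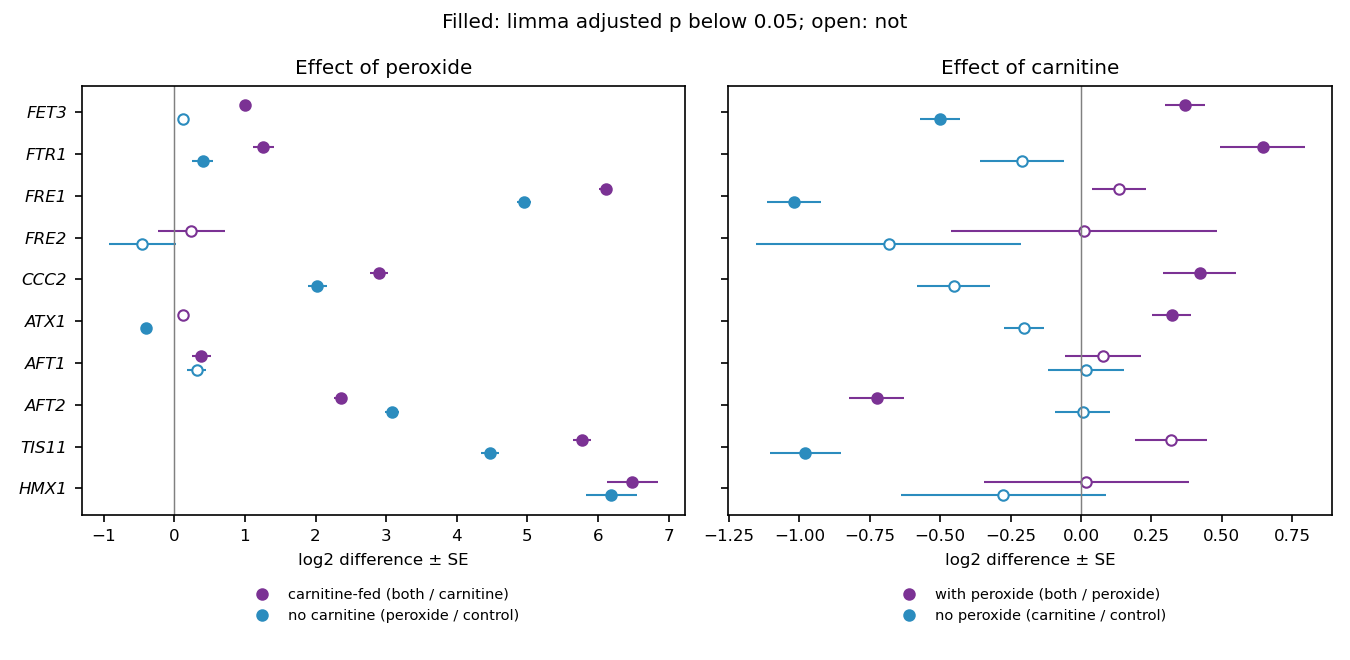
Differences (log2 ± SE, limma) of the 10 genes: left, the effect of peroxide in carnitine-fed cells (purple) and in unfed cells (blue); right, the effect of carnitine with peroxide (purple) and without it (blue). Filled points passed an adjusted p of 0.05. AFT2 is the only gene whose peroxide response was called smaller in carnitine-fed cells, a difference of -0.73 that reads -0.10 with poly-A scaling.

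The related transcription factor genes AFT1 and AFT2 behaved differently. AFT1 (YGL071W), for the main activator of iron uptake genes, read 2619 and 2717 in carnitine with peroxide, 2599 and 2460.3 in peroxide, 1790.4 and 2349 in carnitine, and 2172 and 1890.1 in control cultures. Its only call was a 1.30-fold rise with peroxide in carnitine-fed cells (0.38 ± 0.13, limma adjusted p = 0.0338), which was lost with quantile normalization (0.0509), in a fit of those 4 arrays alone (0.0635), and without carnitine replicate 1 (0.200), carnitine with peroxide replicate 1 (0.0846) or replicate 2 (0.122). Peroxide alone gave 0.32 ± 0.13 (limma adjusted p = 0.0624), which passed in a fit of the control and peroxide arrays alone (0.0390). It reads -0.27 with poly-A scaling (limma adjusted p = 0.131) and 0.79 with hybridisation scaling (0.00011).

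AFT2 (YPL202C) read 6952 on both arrays of carnitine with peroxide, 10851 and 12172 in peroxide, 1302 and 1420.2 in carnitine, and 1459 and 1258 in control cultures. The 2 signals of carnitine with peroxide are identical to every deposited digit, as happened for 1 of 10928 probe sets in that group, 0 in peroxide, 2 in carnitine and 2 in control, so their SD of 0 does not measure the spread. The model pools the spread of the 4 groups, so the SE and p-values of every AFT2 comparison may be too small. Peroxide raised AFT2 8.48-fold in unfed cells (3.08 ± 0.097, limma adjusted p = 3.00e-07) and 5.11-fold in carnitine-fed cells (2.35 ± 0.097, limma adjusted p = 9.12e-07). Carnitine without peroxide gave 0.0058 ± 0.097 (limma adjusted p = 0.996), and carnitine lowered AFT2 1.65-fold with peroxide (-0.73 ± 0.097, limma adjusted p = 0.00323). Relative to poly-A spikes this last difference is -0.03 (adjusted p = 0.853). The responses to peroxide differed by -0.73 ± 0.14 (limma adjusted p = 0.0245; 0.651 with poly-A scaling), opposite in sign to those of FET3, FTR1, FRE1, CCC2, ATX1 and TIS11.

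TIS11 (YLR136C), for the zinc-finger protein that speeds decay of iron-related transcripts, read 18607 and 16825 in carnitine with peroxide, 14925 and 13458 in peroxide, 310.1 and 337 in carnitine, and 719 and 564 in control cultures, with no overlap between any groups. Carnitine alone lowered TIS11 by 1.97-fold (-0.98 ± 0.13, limma adjusted p = 0.0175), with adjusted p = 0.0586 without control replicate 1, 0.0852 without carnitine replicate 1, 0.0849 without carnitine replicate 2 and 0.112 in a fit of those 4 arrays alone. Peroxide raised it 22.3-fold in unfed cells (4.48 ± 0.13, limma adjusted p = 2.19e-07) and 54.8-fold in carnitine-fed cells (5.77 ± 0.13, limma adjusted p = 6.36e-08). The responses differed by 1.30 ± 0.18 (limma adjusted p = 0.0187), the largest such difference of the 10. During peroxide exposure carnitine gave 0.32 ± 0.13, which did not pass (limma adjusted p = 0.0866) but does with poly-A scaling (1.02, adjusted p = 2.04e-05), with only the arrays compared (0.0430) and without either control array (0.0426 and 0.0421). The distance between the profiles of TIS11 and FRE1 was 0.43 log2 units over the 4 group means, after each gene's mean was removed. TIS11's paralog CTH1, for a related zinc-finger protein, rose with peroxide in unfed cells (1.44 ± 0.14) and in carnitine-fed cells (0.70 ± 0.14), and fell with carnitine on top of peroxide (-0.77 ± 0.14, limma adjusted p = 0.00698; -0.07 with poly-A scaling).

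HMX1 (YLR205C), for the haem oxygenase, had the largest peroxide response of the 10. It read 3363 and 2716 in carnitine with peroxide, 3135 and 2837 in peroxide, 29.1 and 39.2 in carnitine, and 62.6 and 26.7 in control cultures. The peroxide groups overlapped each other, as did the groups without peroxide. Peroxide raised HMX1 73.0-fold in unfed cells (6.19 ± 0.36, limma adjusted p = 4.41e-06), the 13th largest rise of 5324 (47.6-fold without control replicate 2 and 112-fold without control replicate 1), and 89.6-fold in carnitine-fed cells (6.49 ± 0.36, limma adjusted p = 2.99e-06). Neither carnitine comparison passed (-0.28 ± 0.36 without peroxide and 0.02 ± 0.36 with it, limma adjusted p = 0.802 and 0.979), and the 2 control arrays differed by 1.23 on the log2 scale. With poly-A scaling the carnitine difference with peroxide was 0.72 (limma adjusted p = 0.0404), where 87.0% of all genes rose.

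Set side by side, 8 of the 10 genes were lower with carnitine in the absence of peroxide and higher with carnitine in its presence, a pattern that 22.8% of all tested genes showed (28.04% with poly-A and 6.56% with hybridisation scaling, where it again held for 8, and 21.2% with quantile normalization, where it held for 7). FRE2 and HMX1 are among the 8 with differences of 0.01 and 0.02 in the presence of peroxide, and AFT1 and AFT2 are the exceptions. FET3 passed in both states with opposite signs. The interaction calls depend on single arrays, for the 10 genes and over all genes alike. Both counts drop in 7 of the 8 fits without 1 array, which leave 1 array in a group. The sign of all 7 differences stayed the same in the 8 fits.

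**Figure D3:**
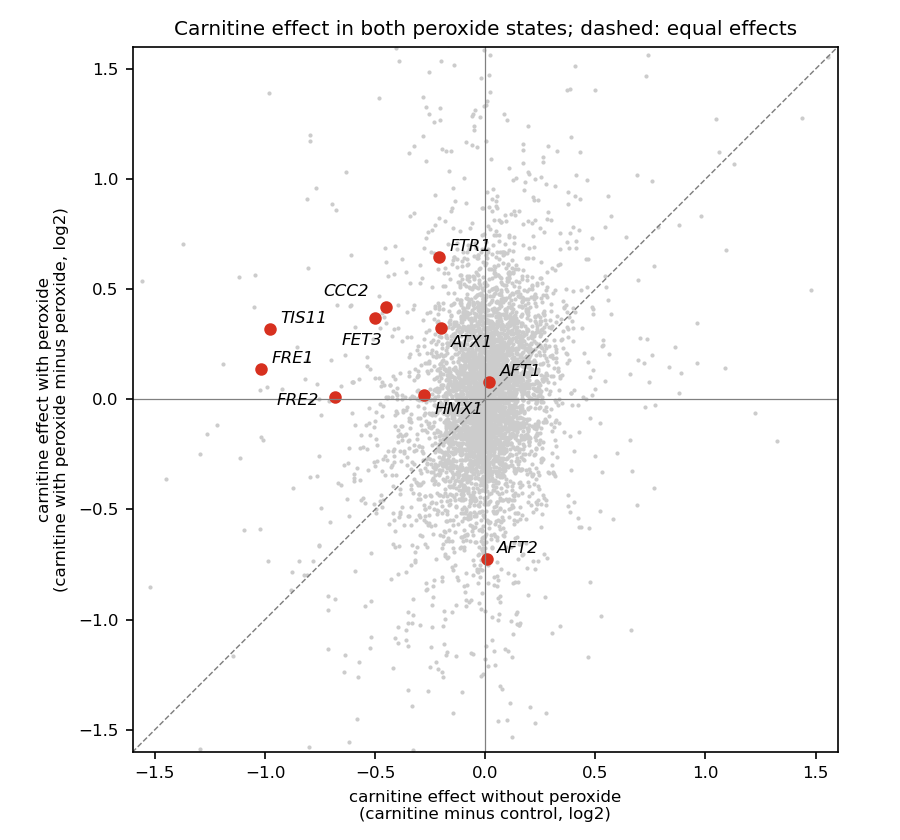
Carnitine effect without peroxide (horizontal, carnitine minus control, log2) against the carnitine effect with peroxide (vertical, carnitine with peroxide minus peroxide, log2) for all tested genes (grey) and the 10 genes (red). The dashed line marks equal effects, and 60 genes lie outside the axes at ± 1.6. FRE1 and TIS11 lie farthest left of the 10, at 0.14 and 0.32 on the vertical axis, FTR1 is the highest of the 10, and AFT2 is the lowest.

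The genes whose 4 group means were most like those of each member were found by Euclidean distance over the 4 groups, among 5314 other genes. Nearest to FRE1 was FIT2, for a cell wall protein that holds siderophores, the iron chelators made by other microbes, at 0.48 log2 units, followed by SOL4 and YTP1. Nearest to TIS11 were SOL4, of the 6-phosphogluconolactonase family, at 0.19 and ARN2, for a siderophore transporter, at 0.34. FIT2 had a carnitine difference of -1.05 ± 0.31 without peroxide and 0.57 ± 0.31 with it, and ARN2 had -0.81 ± 0.20 and 0.60 ± 0.20. None of these differences passed (limma adjusted p = 0.175 and 0.183 for FIT2, 0.125 and 0.0515 for ARN2). Both genes were picked for profiles like those of FRE1 and TIS11, so the likeness follows from that choice. FTR1 was nearest to PMC1, for the vacuolar calcium pump, at 0.086, and FET3 to PET117, for a cytochrome oxidase assembly factor, at 0.098. HMX1 was nearest to GTO3, AAD6 and GTT2, at 0.50 to 0.68, and FRE2 to PCL7 at 0.20. Small distances are common for genes with small differences, so the distances of FET3, FTR1 and FRE2 are not comparable with those of FRE1, TIS11 and HMX1.

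Other genes of iron and copper handling were read from lists. Of 9 siderophore uptake genes, 2 fell with carnitine alone, where 1.03% of all genes fell: ENB1, for a transporter of enterobactin, by 1.56 ± 0.20 and FRE3, for a reductase of siderophore iron, by 1.26 ± 0.18. The list median was -0.54, while FIT1 was higher without passing (0.96 ± 0.22, limma adjusted p = 0.100). With poly-A scaling 1 rose and 3 fell, where 0.66% of all genes rose and 0.90% fell. With hybridisation scaling 1 rose and 4 fell, where 0.98% rose and 0.71% fell. In the same list 7 rose and 0 fell with peroxide alone, where 35.3% of all genes rose. With carnitine on top of peroxide 3 rose and 0 fell, where 18.8% of all genes rose, and the peroxide response was larger with carnitine for 5, against 7.72% of all genes. FIT3, for another siderophore-holding wall protein, rose by 0.85 ± 0.11 with carnitine on top of peroxide (limma adjusted p = 0.00304), and the median of the list was 0.57 there. With poly-A scaling 8 of the 9 rose in that comparison, where 87.0% of all genes rose, and with hybridisation scaling 6, where 13.2% did. Of the 4 other FRE-family genes tested, 3 rose with peroxide alone and 4 in carnitine-fed cells, where 35.3% and 35.8% of all genes rose, and 0 passed in either carnitine comparison (limma adjusted p 0.0673 to 0.797 with peroxide and 0.347 to 0.996 without it; 1 and 0 had an unadjusted p below 0.05). With poly-A scaling all 4 rose with carnitine on top of peroxide, as did 87.0% of all genes, and with hybridisation scaling 1. FRE8 rose by 1.96 ± 0.15 with peroxide alone and FRE6, for a vacuolar reductase, by 1.12 ± 0.096. FRE5 is also counted, with 2.51 ± 0.62, but it passed the filter only through the peroxide groups. It read 3.88 and 3.87 in control and 3.87 and 4.07 in carnitine cultures, below the background of 4.14. With peroxide it read 45.0 and 10.8, and with carnitine and peroxide 64.7 and 28.2. The size of its rise is therefore set by the background. FRE7 was not among the genes tested.

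Among 7 vacuolar and low-affinity iron transport genes, 4 rose and 1 fell with peroxide alone, where 35.3% of all genes rose and 39.5% fell. These counts become 1 and 2 with poly-A scaling, where 14.2% of all genes rose and 66.6% fell. They become 6 and 1 with hybridisation scaling, where 55.7% rose and 15.5% fell. FTH1, for the permease partner of the Fet5 oxidase on the vacuole, rose by 0.67 ± 0.068 with peroxide alone and by 1.08 ± 0.068 in carnitine-fed cells, a difference of 0.41 ± 0.097 (limma adjusted p = 0.0381). SMF3, for a vacuolar iron exporter, rose by 0.71 ± 0.082 with peroxide alone. CCC1, which moves iron into the vacuole, fell by 0.66 ± 0.095 with carnitine on top of peroxide (limma adjusted p = 0.00353), although with poly-A scaling this difference is 0.04, and FET4, for the low-affinity iron transporter, fell by 2.12 ± 0.31 (limma adjusted p = 0.00356). Carnitine on top of peroxide raised 3 of the 7 and lowered 3, where 18.8% of all genes rose and 16.7% fell, with a median of 0.11. These counts become 4 and 1 with poly-A scaling, where 87.0% of all genes rose and 1.52% fell. They become 2 and 2 with hybridisation scaling, where 13.2% rose and 7.21% fell.

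Among 10 copper genes tested, 8 rose and 0 fell with peroxide alone, where 35.3% of all genes rose, and with poly-A scaling 1 rose and 4 fell, where 14.2% rose and 66.6% fell. CCS1, for the copper chaperone of superoxide dismutase, rose by 1.65 ± 0.072 and stayed positive in every scaling, whereas the rises of SOD1 by 0.36 ± 0.040 and COX17 by 0.45 ± 0.097 turned negative with poly-A scaling. CTR1, for the high-affinity copper transporter, had -0.76 ± 0.14 with carnitine alone, just short of the threshold (limma adjusted p = 0.0545). It rose by 1.24 ± 0.14 with peroxide in carnitine-fed cells. Among 5 genes that restrain the Aft factors or control vacuolar storage, 3 rose and 2 fell with peroxide alone, where 35.3% of all genes rose and 39.5% fell. These counts become 2 and 2 with poly-A scaling, where 14.2% of all genes rose and 66.6% fell. They become 3 and 0 with hybridisation scaling, where 55.7% rose and 15.5% fell. YAP5, for an activator of CCC1 under high iron, rose by 1.79 ± 0.13, FRA1 by 0.89 ± 0.080 and GRX3 by 0.41 ± 0.049. BOL2, which acts with the glutaredoxins Grx3 and Grx4 on Aft1, fell by 0.66 ± 0.084. GRX4 fell by 0.51 ± 0.15 with carnitine on top of peroxide (limma adjusted p = 0.0335; 0.18 with poly-A scaling).

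Of 15 genes for iron-sulphur cluster assembly, peroxide alone raised 9 and lowered 2, where 35.3% of all genes rose and 39.5% fell. These counts become 8 and 6 with poly-A scaling, where 14.2% of all genes rose and 66.6% fell. They become 11 and 0 with hybridisation scaling, where 55.7% rose and 15.5% fell. MRS4, for a mitochondrial iron carrier, rose by 2.21 ± 0.057 and the scaffold gene ISU2 by 1.92 ± 0.063. With carnitine on top of peroxide 2 rose and 5 fell, where 18.8% of all genes rose and 16.7% fell. ISA1, for an assembly factor of mitochondrial clusters, had -1.15 ± 0.16 and NFU1 -0.61 ± 0.084, and with poly-A scaling 11 rose and 1 fell, where 87.0% of all genes rose, and NFU1 reads 0.08. Of 8 haem synthesis genes 1 rose and 3 fell with peroxide alone, beside the same shares of 35.3% and 39.5%. HEM13, for an oxygen-dependent step, fell by 1.44 ± 0.21. The haem counts become 0 and 7 with poly-A scaling, beside all-gene shares of 14.2% and 66.6%. They become 4 and 1 with hybridisation scaling, beside 55.7% and 15.5%. Of 20 genes for proteins that carry iron, as possible targets of sparing by Tis11, 4 rose and 8 fell with peroxide alone, where 35.3% of all genes rose and 39.5% fell, and 4 rose and 13 fell in carnitine-fed cells, where 35.8% rose and 39.1% fell. The 4-to-8 split becomes 1 to 16 with poly-A scaling, where 14.2% of all genes rose and 66.6% fell. It becomes 10 to 7 with hybridisation scaling, where 55.7% rose and 15.5% fell. The 4-to-13 split becomes 4 to 10 with poly-A scaling, where 33.7% of all genes rose and 33.5% fell. It becomes 6 to 8 with hybridisation scaling, where 48.0% rose and 18.8% fell. The median of the 20 in that comparison is -0.34 as deposited and 0.03 with hybridisation scaling. RLI1, for an iron-sulphur protein of ribosome recycling, fell by 1.71 ± 0.074, ERG3, for a sterol desaturase, fell by 1.57 ± 0.073 and ILV3, for an iron-sulphur dehydratase, fell by 1.31 ± 0.067 with peroxide alone, while CCP1, for a haem peroxidase that uses hydrogen peroxide, rose by 2.64 ± 0.084. These 4 kept their direction in each scaling. With carnitine on top of peroxide 5 of the 20 rose and 7 fell, where 18.8% of all genes rose and 16.7% fell, against 15 and 0 with poly-A scaling, where 87.0% of all genes rose. ACO1, for aconitase, fell by 0.84 ± 0.11 (limma adjusted p = 0.00291), a call lost with poly-A scaling (-0.15, adjusted p = 0.283). Carnitine alone moved 0 of these 20 genes, 0 of the 15 assembly genes and 0 of the 8 haem genes past the threshold (limma adjusted p from 0.414, 0.194 and 0.597 upward; 0, 2 and 0 had an unadjusted p below 0.05), where 1.5% of all genes passed.

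**Figure D4:**
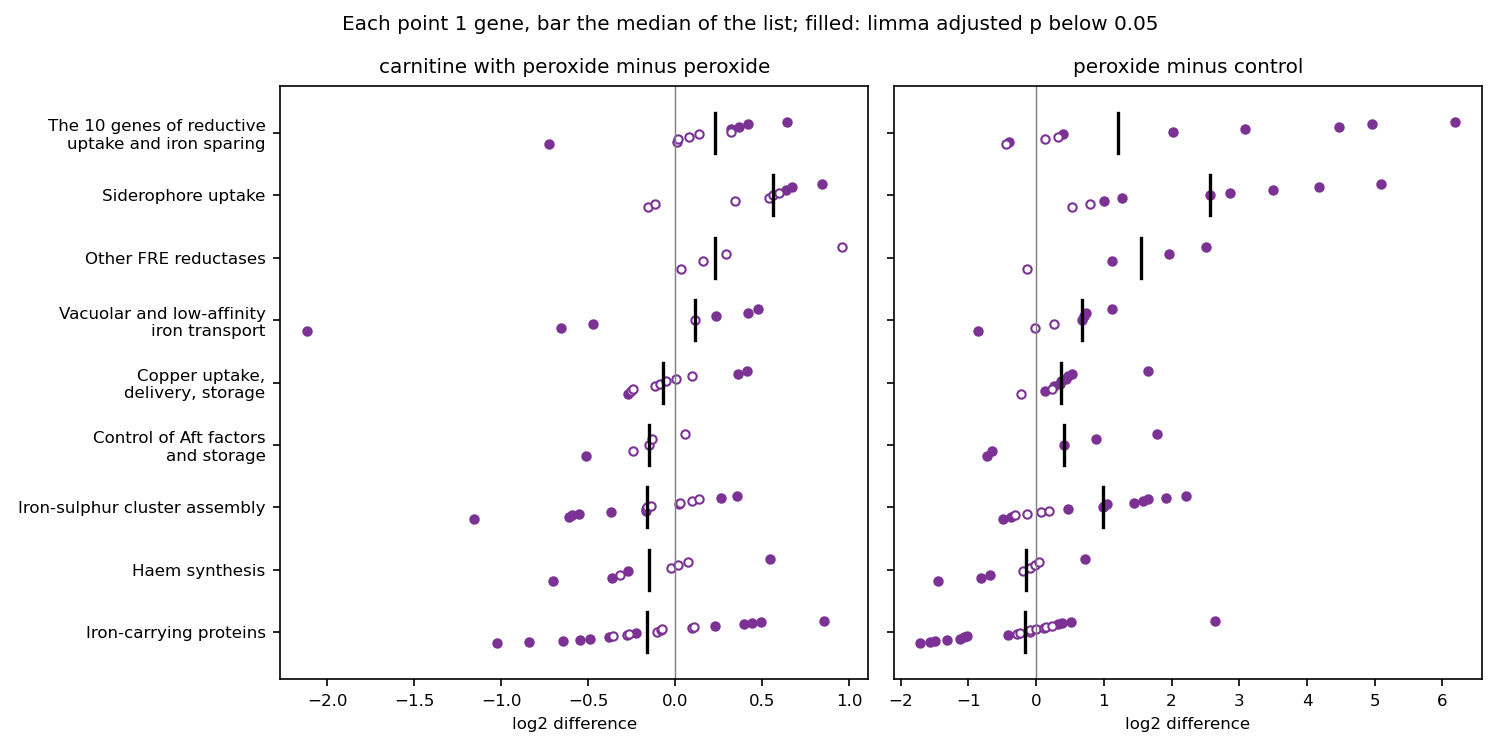
Differences (log2) of single genes with carnitine on top of peroxide (left) and with peroxide alone (right), for the 10 genes and for the lists of other iron and copper genes. Bars mark list medians and filled points passed an adjusted p of 0.05. On the left the medians of the 10 genes and of siderophore uptake are 0.23 and 0.57, and those of iron-sulphur assembly, haem synthesis and iron-carrying proteins are -0.16, -0.15 and -0.16, which read 0.53, 0.55 and 0.53 with poly-A scaling.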

How the data were processed

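The authors deposited linear intensity, 1 signal per probe set and array, for 10928 probe sets with values from 3.20 to 79918. The submitters' processing notes list GCOS. The sources used here do not give how signals were summarised, background-corrected or scaled. No array dates or batches were used. By the platform annotation, 5498 probe sets had a single S. cerevisiae gene, 1 had several, 3683 had none and 1746 were for fission yeast; 12 symbols were updated through gene identifiers. The probe set of highest mean log2 signal stood for its gene. A background of 2.05 in log2 (4.14 linear), the 95th percentile over fission yeast probe sets, removed 125 genes. Signals were used as deposited because the medians of tested genes differed by 5.08%, under a limit of 10%. limma 3.58.1 (R 4.3.3; lmFit, and eBayes with trend) fitted log2 signals as 4 group means over 8 arrays, with 4 residual and 3.44 prior degrees of freedom. The interaction is the peroxide effect with carnitine minus that without. The pipeline was tested on simulated data. Alternatives were quantile normalization, scaling to 12 poly-A or 9 hybridisation spike probe sets, no filter, no trend, an offset of 50, only the arrays compared, a replicate block, every probe set, and each array left out in turn. All 10 genes are named; other list genes are named by absolute moderated t, up to 4 a list and comparison, and the 3 nearest profiles by distance. The genes and lists were chosen with earlier results of these data known. Figures were drawn with matplotlib 3.10.9. No sequences were used here, and RefSeq gene positions served only to find flanking genes.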

Additional observations from a re-analysis of the deposited data

Results flagged for a closer look

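The effect of peroxide differed between carnitine-fed and unfed cells, by the interaction term of the linear model (limma), for 7 of the 10 genes. In log2 units the difference was 1.30 ± 0.18 for TIS11, 1.15 ± 0.13 for FRE1, 0.87 ± 0.10 for FET3, 0.87 ± 0.18 for CCC2, 0.85 ± 0.21 for FTR1 and 0.53 ± 0.099 for ATX1, all larger in carnitine-fed cells. For AFT2 it was -0.73 ± 0.14, smaller in carnitine-fed cells. The background for the interaction was 12.8% of all genes. For FRE1 and TIS11 the carnitine difference was -1.02 and -0.98 without peroxide. With peroxide it was 0.14 and 0.32, which did not pass (limma adjusted p = 0.293 and 0.0866). FET3, FTR1, CCC2, ATX1 and AFT2 did pass for carnitine on top of peroxide. With poly-A scaling the response was larger for 8 of the 10 and smaller for 0, where it was larger for 73.2% of all genes. With hybridisation scaling it was larger for 5 and smaller for 1, where 2.91% of all genes were larger and 3.74% smaller. As given above, these calls depend on single arrays. Groups of 2 arrays are too small to look for single outlying arrays.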

How the results depend on the processing

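Over 9 alternatives and 8 fits without 1 array, the number of the 10 genes called with peroxide stayed at 6 to 8 in unfed and 7 to 9 in carnitine-fed cells, against 7 and 8. For carnitine alone the 3 calls became 2 with poly-A scaling, hybridisation scaling, no filter or no trend. They became 1 with only the arrays compared, and were fewer in some fits without 1 array. For carnitine on top of peroxide the 5 became 8 with poly-A scaling and 6 with only the arrays compared. They became 4 with no filter, no trend or an offset of 50, and were fewer or more in some fits without 1 array. For the interaction the 7 became 8 with poly-A scaling and 6 with hybridisation scaling, no filter, no trend or an offset of 50. They were fewer in most fits without 1 array. With poly-A scaling 87.0% of all genes rose with carnitine on top of peroxide, so 8 of the 10 is near the share of all genes. In that scaling the interaction was called larger for 8 of the 10 and smaller for 0, where 73.2% of all genes were larger. Peroxide alone raised 5 of the 10 and lowered 3 with poly-A scaling, where 14.2% of all genes rose and 66.6% fell. With hybridisation scaling it raised 8 and lowered 0, where 55.7% rose and 15.5% fell. Poly-A scaling turned the peroxide differences of FET3, FTR1 and AFT1 to -0.46, -0.19 and -0.27. FET3 and AFT1 had peroxide differences of 0.60 and 0.79 with hybridisation scaling. Hybridisation scaling turned those of FRE2 and ATX1 to 0.019 and 0.072 and the AFT1 interaction to -0.043. Quantile normalization turned FRE2 to -0.36 with peroxide in carnitine-fed cells and to -0.038 with carnitine on top of peroxide. Differences not called with all arrays that changed sign without 1 array ranged as follows. With carnitine alone they were -0.18 to 0.21 for AFT1, -0.10 to 0.11 for AFT2 and -0.89 to 0.34 for HMX1. FRE2 ranged from -0.62 to 1.11 with peroxide in carnitine-fed cells and from -0.86 to 0.88 with carnitine on top of peroxide, where HMX1 ranged from -0.13 to 0.17. The interaction ranged from -0.17 to 1.56 for FRE2, -0.14 to 0.26 for AFT1 and -0.32 to 0.91 for HMX1. Fits without 1 array hold fewer arrays; for the other settings the cause was not tested.

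Over all genes, the 80 calls for carnitine alone became 41 with no filter, 15 with only the arrays compared and 17 to 54 without 1 array. The 1892 with carnitine on top of peroxide became 4714 with poly-A and 1088 with hybridisation scaling, and 786 to 1763 without 1 array. The 683 of the interaction became 3935, 354, 449 with no filter, and 17 to 969. Rising calls, 31.3%, 47.2%, 47.8%, 53.0% and 60.2% of calls in the order carnitine alone, peroxide alone, peroxide in fed cells, carnitine on top of peroxide and interaction, became 42.2%, 17.5%, 50.1%, 98.3% and 99.0% with poly-A and 57.8%, 78.3%, 71.9%, 64.7% and 43.8% with hybridisation scaling. The replicate block changed no call of the 10 genes, with 3, 7, 8, 5 and 7 calls as before, and gave 106 calls over all genes for carnitine alone and 863 for the interaction. Replicate numbers shared only a number: deviations of same-numbered arrays correlated at -0.11 to 0.13 between groups.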

Other observations

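The protein-coding genes that flank the 10 genes were read as well, a choice made after the values were seen, with gene order from RefSeq (assembly R64). Of 20 flanking genes 19 were tested. With peroxide alone 11 rose and 6 fell, where 74.8% of all genes were called, and with carnitine alone 0 passed (limma adjusted p from 0.249 upward; 3 had an unadjusted p below 0.05), where 1.5% were called. With carnitine on top of peroxide 5 of 19 passed, where 35.5% were called. LTO1, which neighbours ATX1 and encodes a factor for loading iron-sulphur clusters onto Rli1, rose by 3.64 with peroxide alone, while ATX1 fell by 0.40. LTO1 had a difference of -0.75 with carnitine on top of peroxide (limma adjusted p = 0.00775; -0.06 and 0.666 with poly-A scaling), where ATX1 had 0.32. AFT2 lies between TPK2, for a catalytic subunit of protein kinase A, which rose by 1.76 with peroxide alone, and YIG1, which fell by 2.79. CRR1, beside FRE1, rose by 1.89 with peroxide alone and had -0.67 with carnitine on top of peroxide (limma adjusted p = 0.00558), which reads 0.03 with poly-A scaling (0.903).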
